A study of Caenorhabditis elegans with 2 samples.

Results

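The nuclear hormone receptor genes of Caenorhabditis elegans were examined as candidate targets of NHR-80, itself a member of that family. The members were the protein-coding genes of the WBcel235 annotation whose names begin with nhr- and a number, other than nhr-8, nhr-10, nhr-13, nhr-49, nhr-66, nhr-68 and nhr-80. They came to 262 of the 19973 nuclear protein-coding genes. Binding of NHR-80 had been measured by ChIP-seq, in which chromatin is sheared, the tagged protein is immunoprecipitated and the DNA that comes with it is sequenced. The animals were whole young adult hermaphrodites of strain OP460, which carries unc-119(tm4063) on chromosome III and the transgene wgIs460 encoding NHR-80 with GFP and FLAG at its C terminus. They were collected 64 hours after synchronization as starved L1 larvae, in 2 biological replicates of 1 group, and no untagged or other strain was analysed here. Whole animals were used, so a peak does not say in which tissue the protein was bound.

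Nuclear hormone receptors are transcription factors with a zinc finger DNA-binding domain and a ligand-binding domain that in many members senses a small lipophilic molecule. Nematodes have a very large set of them, most derived from an ancestor related to vertebrate HNF4, beside a small number of receptors with clear relatives in insects and vertebrates. NHR-80 is known for its work with NHR-49 in the control of fatty acid desaturation and for its part in the long life of animals without a germline. The worm receptors are also known to act on one another in metabolic circuits.

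A gene was counted as bound when the summit of a peak in the authors' thresholded list lay between 1000 bp upstream and 200 bp downstream of its annotated 5′ end. That list holds 7038 peaks and was thresholded by IDR, which rates how reproducible the ranks of peaks are. The strongest promoter peak of each bound member had the same rank in it as in the list pooled over both replicates. A place in the thresholded list therefore does not show that a peak was found in each replicate. Each peak carries a signal value that the authors deposited, on the scale of their peak caller. It runs from 93.0 upward in the thresholded list with a median of 195, and values are comparable only within a list. The pooled list, which also holds weak peaks and background, has 30000 entries, and the lists of replicates 1 and 2 have 30000 and 29712. Peak lists carry no read counts, so the depth of each library is unknown and no value has an interval from depth.

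The DNA under the strongest member peaks is shown first, because they have the highest NHR-80 signals among the promoter summits of the members. Each line gives 81 bp centred on the summit in WBcel235, 5′ to 3′ on the strand of the gene. Capitals mark the words TGATAA and GAGAGA as well as CTGCG in either orientation, so that TTATCA stands for the first read on the other strand, TCTCTC for the second and CGCAG for the last.
nhr-35 (chrX:4532349-4532429, plus strand): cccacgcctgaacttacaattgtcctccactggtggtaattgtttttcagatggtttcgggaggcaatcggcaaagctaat
nhr-31 (chrIV:8030257-8030337, minus strand): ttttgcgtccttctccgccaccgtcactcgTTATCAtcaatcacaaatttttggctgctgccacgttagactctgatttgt
nhr-291 (chrV:15318762-15318842, plus strand): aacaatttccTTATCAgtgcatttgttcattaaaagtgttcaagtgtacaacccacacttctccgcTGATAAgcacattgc
nhr-135 (chrV:7093961-7094041, minus strand): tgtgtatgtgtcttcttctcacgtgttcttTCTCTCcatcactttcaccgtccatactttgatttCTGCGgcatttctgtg
The strongest site, at nhr-35, holds none of these words, nhr-31 holds TGATAA once and nhr-291 holds it on both sides of the summit. The site of nhr-135 holds GAGAGA and CTGCG.

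A further set comes from receptor gene clusters on chromosome V, where CTGCG stood beside many summits. The sites were picked because they hold that word, which 18 of the 44 bound members in clusters had (40.9%), so their likeness comes from the choice.
nhr-58 (chrV:532165-532245, plus strand): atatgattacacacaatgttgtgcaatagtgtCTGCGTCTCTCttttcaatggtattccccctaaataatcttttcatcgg
nhr-132 (chrV:534347-534427, plus strand): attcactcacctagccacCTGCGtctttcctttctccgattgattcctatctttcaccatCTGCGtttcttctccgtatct
nhr-184 (chrV:2214855-2214935, minus strand): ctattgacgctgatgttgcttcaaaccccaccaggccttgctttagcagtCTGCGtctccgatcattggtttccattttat
nhr-134 (chrV:2231070-2231150, plus strand): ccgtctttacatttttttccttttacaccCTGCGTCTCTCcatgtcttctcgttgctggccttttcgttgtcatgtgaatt
nhr-206 (chrV:12091899-12091979, plus strand): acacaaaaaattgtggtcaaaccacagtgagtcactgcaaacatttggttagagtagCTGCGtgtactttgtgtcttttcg
In nhr-58 and nhr-134 the CTGCG runs straight into TCTCTC, and in nhr-132 it occurs on both sides of the summit. The last set holds TGATAA sites from receptors with known parts in metabolism and stress, together with nhr-280, among the weakest bound members.
nhr-114 (chrV:4186469-4186549, plus strand): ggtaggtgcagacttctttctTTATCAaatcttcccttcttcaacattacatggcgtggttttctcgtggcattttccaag
nhr-86 (chrV:2066858-2066938, minus strand): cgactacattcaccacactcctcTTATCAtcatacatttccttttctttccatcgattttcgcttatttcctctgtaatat
nhr-45 (chrX:4660634-4660714, minus strand): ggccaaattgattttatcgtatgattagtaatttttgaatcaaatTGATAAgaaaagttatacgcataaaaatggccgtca
nhr-280 (chrIII:130776-130856, minus strand): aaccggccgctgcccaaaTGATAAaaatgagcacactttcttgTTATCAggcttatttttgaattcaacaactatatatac

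NHR-80 peaks were found at the promoters of 76 of the 262 receptor genes, or 29.0%, where 18.6% of all protein-coding genes had one. A further 55 receptor genes had a promoter summit in the pooled list only, and 131 had none in either list. Counting any pooled peak gave 131 receptor genes, or 50%, against 38.1% of all genes. Of the members with any pooled summit, 58.0% had a thresholded one, against 48.8% over all genes. With 1 group there is no contrast between samples, and the genes of a family are not independent, so these shares are descriptions with no test.

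The replicates gave nearly the same count. Among the 7038 strongest peaks of each, replicate 1 had a promoter summit at 75 members (28.6%, background 18.1%) and replicate 2 at 74 (28.2%, background 18.4%). The mean was 74.5 ± 0.707 (SD, n = 2), and 70 members were in both, 5 in replicate 1 only and 4 in replicate 2 only. Of the 76 thresholded member peaks, 69 overlapped a strong peak of both replicates by at least 1 bp, 6 of one replicate and 1, at nhr-280, of neither. The signal was higher in replicate 1 at 60 of the 75 members with a value in both, with a median ratio of 1.16 (0.652 to 2.01), and 70 lay within 1.5-fold. The replicates have separate scales, so that ratio is not a difference in binding. Spearman's correlation across these 75 members was 0.94, a description over genes that share both libraries. Summits of the replicates lay a median of 4.00 and 6 bp from the summit in the thresholded list.

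**Figure D1:**
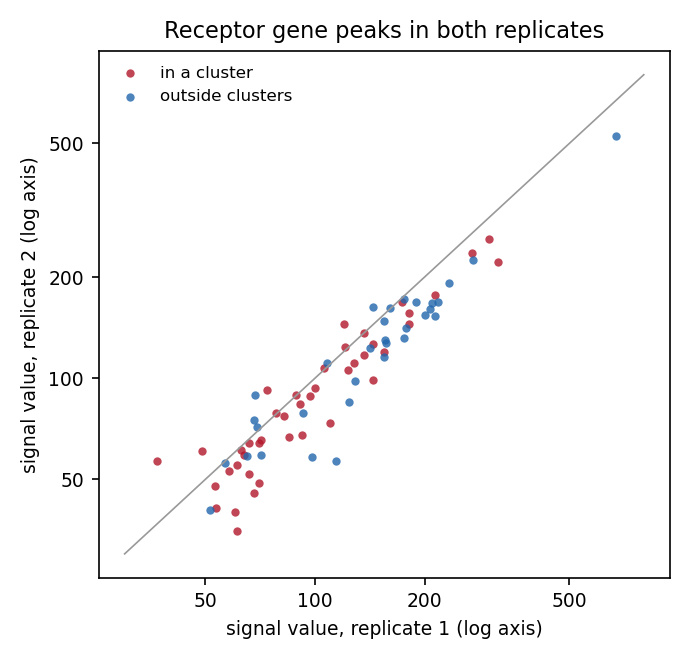
Signal value of each receptor gene's promoter peak in replicate 1 (horizontal, log axis) and replicate 2 (vertical, log axis), 75 genes with a value in both. Each point is a gene, red in a cluster of receptor genes and blue outside, and the line marks equal values. Most points lie just below the line, 60 of them with the higher value in replicate 1, and nhr-35 stands alone at the top right.

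A larger share of receptor genes than of all genes was bound, while their signal values had nearly the same median. The strongest promoter summit of the bound members had a median signal of 212, with quartiles of 138 and 311, and ran from 94.1 to 1192. Over all 3712 genes with a promoter summit the median was 202, with quartiles of 137 and 315, and the highest was 1709. A signal over 200 was held by 39 members, or 51.3%, against 50.6% of those genes. Very strong peaks were few among the members, with 3 over 500, or 3.95%, against 8.73%. That low share depends on the rule, which leaves out nhr-68 with 773, nhr-8 with 718 and nhr-49 with 504. Those receptor genes stay in the share over all bound genes. Restricting the list to peaks above its median signal left 39 bound members, or 14.9%, against 9.77% of all genes. Where windows overlap a summit counts for several genes, and assigning it to the nearest start alone left 74 members (28.2%) against 15.2% of all genes.

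The gene nhr-35 had by far the highest signal of the members. Its peak at chrX:4531990-4532792 had a signal of 1192 with the summit at -302 bp from the 5′ end, where negative is upstream, rank 19 among all thresholded peaks, and values of 673 in replicate 1 and 525 in replicate 2. The next member was nhr-31, which is known to control vacuolar ATPase genes in the excretory cell. Its signal was 563, with 301 and 259 in the replicates, and its summit lay at -784 bp. In both replicates nhr-35 was far above nhr-31.

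After these came nhr-291 with a signal of 543 (319 in replicate 1 and 222 in replicate 2) and nhr-135 with 499 (270 and 235). The nhr-135 promoter had a second, weaker summit further upstream. The gene nhr-232 had a signal of 498 (272 and 224) inside its 5′ end, at 62 bp downstream, and a second, weaker summit far upstream. The replicates ordered nhr-291, nhr-135 and nhr-232 differently, so their order is not resolved. The promoter of nhr-3 had a signal of 423 (233 and 192), and a still stronger summit of 855 lay in its gene body, 1890 bp downstream of the 5′ end. The 25 strongest members that overlapped strong peaks of both replicates reached down to nhr-177 with 274. Between those limits stood nhr-178 with 390, nhr-69 with 383, nhr-57 with 380, nhr-1 with 368, nhr-121 with 359, nhr-97 with 357, and nhr-104 and nhr-71 with 346 each. Below them were nhr-58 with 342, nhr-50 with 337, nhr-131 with 328, nhr-79 with 324, nhr-256 with 318, nhr-32 with 308, nhr-142 with 303, nhr-48 with 301, nhr-64 with 285 and nhr-47 with 284. The replicates ordered 18 of the 24 neighbouring pairs among these 25 genes differently, so the order is loose. Beyond the genes named here, the other 17 bound members had signals from 99.4 to 271 with a median of 153.

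At the other end, the weakest thresholded members were nhr-154 with 94.1, nhr-280 with 94.3 and nhr-136 with 96.3. The strongest promoter peaks outside the thresholded list were at nhr-117 with 93.0, nhr-153 with 90.3 and nhr-110 with 89.2 in the pooled list. The step between bound and unbound members is therefore small. Of the 55 members with a pooled summit only, 46 had a promoter summit in both replicate lists. Those lists also hold weak peaks, and the same share over all genes was not counted, so this does not show reproducible binding. The pooled signal of these 55 members ran from 4.61 to 93.0 with a median of 39.8. The lists of the older build ce10 were thresholded lower, at 52.3 with 9962 peaks. Lowering the limit to that signal in the ce11 pooled list, a choice made after the data were seen, gave 98 bound members (37.4%) against 23.8% of all genes. The lists of both builds may differ in scale, so this shows only how the counts move with a lower limit.

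Receptors known for metabolism and stress, a list drawn up with earlier results of these data known, were mostly bound. Of 11 such genes 8 had a thresholded promoter summit (72.7%, against 18.6% of all genes), with a median signal of 249, and the other 3 had a pooled summit only. Beside nhr-31 these were nhr-69 and nhr-64, HNF4-related receptors with parts in insulin signalling and fat metabolism, with signals of 383 (218 and 169 in replicates 1 and 2) and 285 (156 and 130). The hypoxia-induced receptor nhr-57 had 380 (210 and 167), and nhr-45, known from detoxification and mitochondrial stress, had 213 (108.3 and 110.8). The receptor nhr-114, which protects the germline from dietary stress, had a summit of 171 at -693 bp, with 92.5 and 79.0 in the replicates, and a weaker one just inside the gene. The stronger summit lay in an intron of another protein-coding gene, although the start of nhr-114 was the nearest. The thiabendazole-responsive nhr-176 had 162 (68.5 and 89.2), and nhr-86, which senses a bacterial metabolite, had 121 (65.2 and 58.5). All of these bound peaks had a value in both replicates.

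The remaining genes of that list were nhr-76, nhr-14 and nhr-62. The receptor nhr-76, needed for fat loss driven by serotonin, had a promoter signal of 53.9, but a thresholded summit of 414 lay at -1158 bp, just beyond the window, and another of 275 in its gene body. The iron-responsive nhr-14 had a promoter signal of 22.2, with thresholded summits of 137 at -1124 bp and 157 in the gene body, in an annotated 3′ UTR. At nhr-62, known from the long life of animals under dietary restriction, the promoter signal was 7.85 and a summit of 149 lay at -1107 bp. Each of these genes thus had a thresholded summit within a short distance outside the window.

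Of 10 receptors with close relatives in insects and vertebrates, 1 had a thresholded promoter summit (10.0%, against 18.6% of all genes), a count near the background for 10 genes. It was nhr-48, a relative of the dauer receptor daf-12, with 301 (155 in replicate 1 and 148 in replicate 2). Its gene body held a stronger summit of 517. Pooled summits only were seen at nhr-41, the TR2/TR4 relative, with 42.5, at the NR4A relative nhr-6 with 22.3, at nhr-23, the ROR relative that drives moulting, with 21.8, and at the Rev-erb relative nhr-85 with 7.66. No pooled promoter summit was found at nhr-25, the SF-1 relative, nhr-67, the Tailless relative, nhr-91, the GCNF relative, nhr-111 or nhr-239. The thresholded list held summits elsewhere at nhr-6, 339 at -1895 bp, at nhr-111, 146 at -4476 bp, and at nhr-41, 223 in the gene body.

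The 7 receptor genes set apart by name give a comparison, and they include the partners of NHR-80 in lipid metabolism. Of these 5 were bound, with a median signal of 504. The signals were 773 at nhr-68 and 718 at nhr-8, which act in propionate breakdown and in cholesterol balance and xenobiotic defence. They were 504 at nhr-49, 460 at nhr-80 itself and 187 at nhr-13, while nhr-10 and nhr-66 had pooled promoter summits only. The animals also carry a transgene encoding NHR-80, and peak lists cannot tell its DNA from that of the native nhr-80 gene. The value at nhr-80 is therefore not comparable with the others. Thresholded summits lay at -1361 bp from nhr-10 with 275 and at 4 places in the gene body of nhr-66, the strongest with 612. That strongest summit lay in an annotated 5′ UTR, 6836 bp downstream of the 5′ end of nhr-66. Only nhr-35, nhr-31 and nhr-291 among the 262 members exceeded the value of nhr-49 at the promoter. Those 7 genes were named for their known parts in this pathway, with results known, and no test was made.

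The share of bound receptor genes differed by chromosome. Chromosome X had 12 of 23 members bound (52.2%, against 22.8% of its genes) and chromosome V, which holds 63.0% of the members but 25% of all genes, had 51 of 165 (30.9%, against 16.3%). Chromosome III had 2 of 6 (33.3%, against 21.7%) and chromosome II 4 of 15 (26.7%, against 17.6%). Chromosome IV had 5 of 31 (16.1%, against 17.5%) and chromosome I 2 of 22 (9.09%, against 18.0%), so these shares lay near or below their background. With windows from 500 bp upstream to 100 bp downstream the count on X was 7. Over the genes of all chromosomes that window gave a share of 14.28%, and the share of X genes alone was not counted with it.

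**Figure D2:**
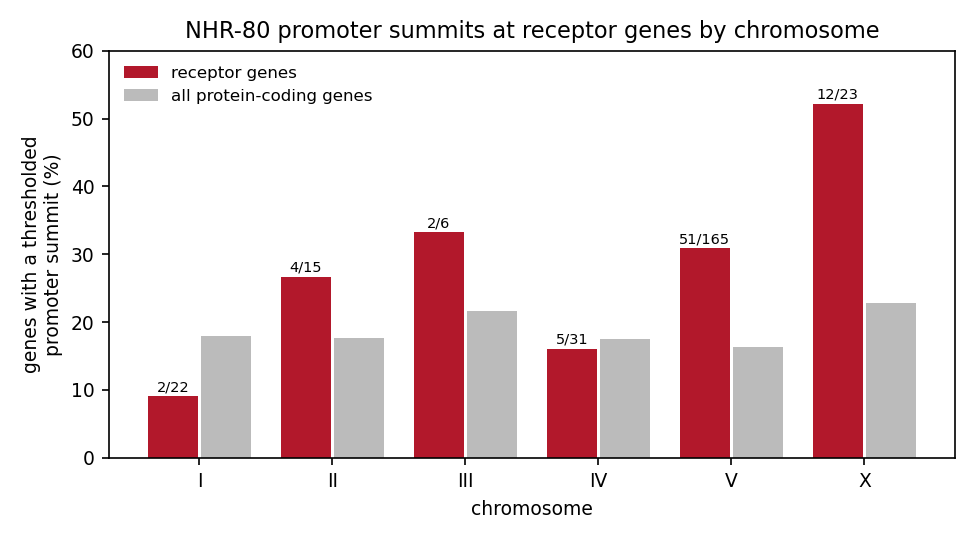
Share of genes with a thresholded promoter summit (vertical axis, percent) on each chromosome, for receptor genes (red, with the bound and total numbers above the bars) and all protein-coding genes (grey). The receptor bars stand above the grey ones on II, III, V and X, highest on X with 12 of 23, and below them on I and IV.

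The strength of the peaks had another order. Bound members on V had a median signal of 175.9 (94.1 to 543), below the 203 of all bound genes there, while those on X had 286 (137 to 1192) against 245. On IV the median was 346 (112 to 563) against 189, over 5 members. The 2 bound members of I had 285 and 383, and the 4 of II lay between 149 and 263. On III the values were 94.3 at nhr-280 and 359 at nhr-121. The chromosome with the most bound receptors was thus not the one with the strongest peaks, and the ranges of V and X overlapped between 137 and 543.

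**Figure D3:**
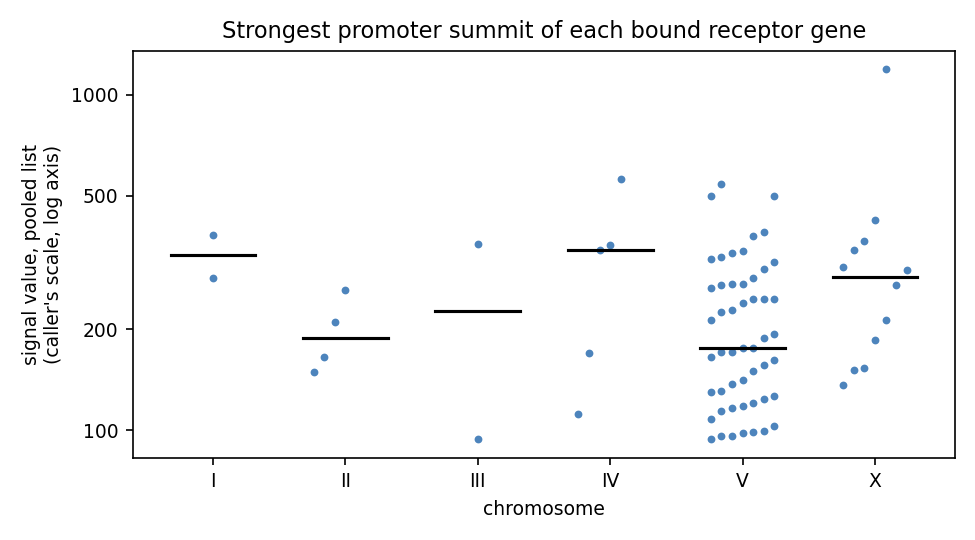
Signal value of the strongest thresholded promoter summit (vertical, log axis, pooled list) of each of the 76 bound receptor genes by chromosome. Each point is a gene and each line a median, which is 175.9 on V and 286 on X, with nhr-35 at 1192 on X as the highest point.

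Each chromosome was divided evenly into a left, a middle and a right segment, and the share was highest in the left. There 41 of 108 members were bound (38%, against 16.9% of all genes), compared with 18 of 67 in the middle (26.9%, against 22.2%) and 17 of 87 in the right (19.5%, against 16%). Chromosome V had the same order, with 30 of 77 (39.0%, against 16%), 12 of 40 (30%, against 20.4%) and 9 of 48 (18.8%, against 12.1%). It supplies most of the members in the left segments, so it does not repeat the order separately. Its left segment holds clusters described below, with 9 of 12 bound at chrV:451451-497297, 5 of 9 at chrV:2257420-2296977 and 0 of 10 at chrV:3844429-3908452. The part of such clusters in the order was not tested.

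Many receptor genes lie next to one another, and clusters ranged from 75% of members bound to none. With members at most 20 kb apart joined, 165 members fell into 43 clusters, 29 of them on V. No bound member was found in 23 clusters, 1 in each of 11, and several in 9. Members in clusters were bound in 26.7% of cases (44 of 165, median signal 174) and those outside in 33.0% (32 of 97, median 284). On V the shares were 31.2% in clusters and 30% outside, and on the other chromosomes 12.5% and 35.1%. Genes in clusters had a median length of 2106 bp against 3395 bp outside, and a median gap to the next gene upstream of 1045 bp against 3370 bp. On V alone the lengths were 2106 and 2174 bp and the gaps 904 and 1602 bp. The part of these differences in the shares was not tested.

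The largest cluster, of 12 members at chrV:451451-497297, held the most bound members. There was a thresholded summit at 9 of the 12 and a pooled summit at the other 3. The highest signal was 328 at nhr-131 (181 in replicate 1 and 145 in replicate 2), followed by nhr-203 with 266 (120 and 145), nhr-55 with 247 (136 and 117) and nhr-99 with 228 (123 and 106). Then came nhr-202 with 194 (100 and 93.6), nhr-130 with 171 (91.1 and 83.7), nhr-106 with 138 (70.9 and 65.6), nhr-201 with 108 (49 and 60.9) and nhr-212 with 98.8 (63.8 and 59.0). The members with a pooled summit only were nhr-123 with 78.6, nhr-98 with 55.1 and nhr-211 with 21.2. None of the 3 other genes inside the cluster was bound, and 7 of the 29 within 50 kb were (24.1%), among them the lipase gene lipl-3. Each bound member had a summit of its own, and no thresholded summit lay in the windows of a pair of receptor genes anywhere in the family.

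Close by at chrV:517801-541485, 3 of 4 members were bound, nhr-58 with 342, nhr-132 with 188 and nhr-210 with 175.9, against 1 of the 29 other genes within 50 kb. A pair of clusters further along V, at chrV:2210510-2235180 and chrV:2257420-2296977, had 4 and 5 of 9 members bound. In the first these were nhr-56 with 273, nhr-133 with 117, nhr-184 with 103 and nhr-134 with 98.6. In the second they were nhr-228 with 272, nhr-226 with 175.9, nhr-59 with 150, nhr-115 with 141 and nhr-182 with 114.3. The peak of nhr-226 had no overlapping peak in replicate 2 and rests on replicate 1 and the pooled reads. The other genes near these clusters were bound in 30.8% and 23.1% of cases, and they include cytochrome P450 genes of the cyp-33C group. These counts are not separate, because each bound gene near the second cluster is also counted near the first. Both include nstp-8 and fbxa-137, whose windows hold the summits of nhr-184 and nhr-59.

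In the cluster at chrV:12092006-12109313, 4 of 7 members were bound and the other 3 had a pooled summit. The signals were 246 at nhr-206, 165 at nhr-207, 96.3 at nhr-136 and 94.1 at nhr-154, and 2 of the 25 other genes nearby were bound (8.00%). At chrV:1603906-1629432, 2 of 7 were bound, nhr-178 with 390 and nhr-177 with 274, and none of the 21 other genes nearby. At chrV:6980587-7000651 the bound members were nhr-42 with 213 and nhr-107 with 96.5 of 7, with 0 of 24 others. At chrV:8961878-8974939 they were nhr-143 with 246 and nhr-195 with 127 of 4, with 1 of 24 others. On X, nhr-173 with 186 and nhr-120 with 151 were bound in a cluster of 3, with 4 of 22 others (18.2%), and nhr-120 had a stronger summit of 360 in its gene body.

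Other clusters of like size had no bound promoter. At chrV:3844429-3908452 none of 10 members was bound and 2 had a pooled summit, while 4 of 31 other genes nearby were bound (12.9%), among them cyp-35A5. At chrV:15674007-15702363 none of 8 members and none of the 31 other genes was bound. At chrV:15770268-15813104 none of 5 members and 2 of 44 others were bound. The 5 clusters of chromosome I, with 13 members together, had no promoter summit in either list. Their surroundings were also nearly empty, with 1 of 20 and 1 of 28 other genes bound within 50 kb at a pair of these clusters and none at the other 3.

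**Figure D4:**
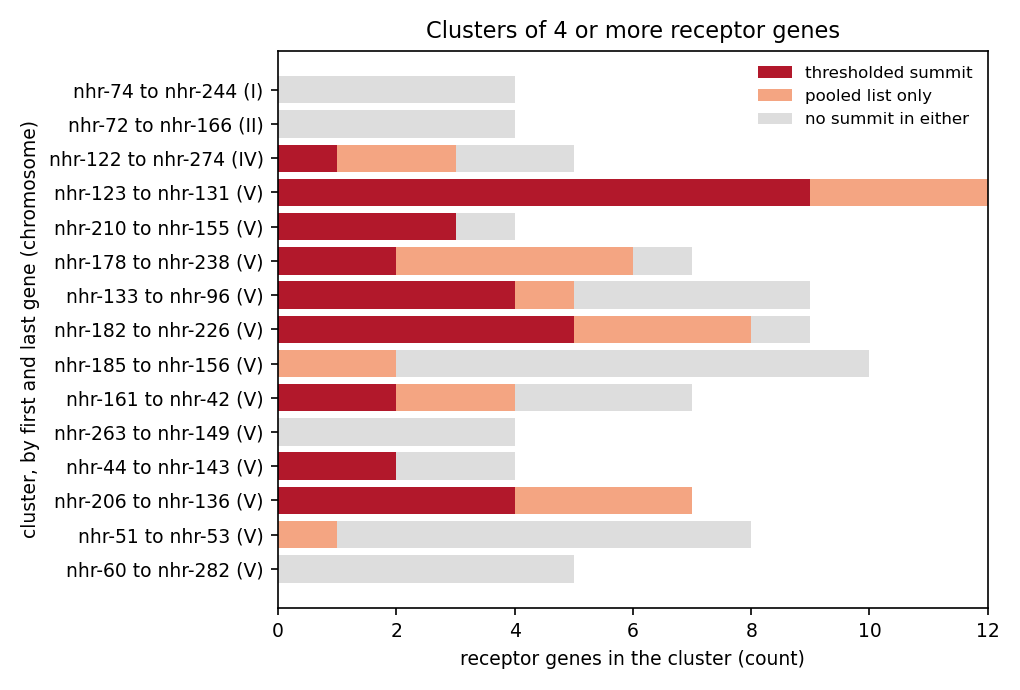
Number of receptor genes (horizontal axis) with a thresholded promoter summit (dark red), a summit in the pooled list only (orange) and none in either list (grey) in each cluster of 4 or more receptor genes, named by its first and last gene. The cluster from nhr-123 to nhr-131 has 9 of 12 bound, and the cluster from nhr-185 to nhr-156 has 0 of 10.

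Most summits lay close to the 5′ end. The strongest summit of the bound members had a median distance of -158 bp from the 5′ end, compared with -223 bp over all bound genes, and the range was -998 to 165 bp. The member median depends on the window, with -112 bp for 500 bp upstream to 100 bp downstream and -274.5 bp for 2000 bp upstream to 500 bp downstream. It was -230 bp for peaks above the median signal. Summits from the 5′ end to 200 bp downstream were held by 13 members (17.1%, against 7.76% of all bound genes), and 28 lay within 200 bp upstream (36.8%, against 38.3%). In the annotation of all protein-coding genes, 61 summits lay between genes, 13 in a 5′ UTR and 2 in an intron. Non-coding genes were not considered in this placement. Promoters of bound receptors were rarely shared, with 6 members whose summit also lay in the window of another gene (7.89%, against 35.2% of all bound genes). At nhr-142 and nhr-213 that other gene, F44E7.9 and str-60, had the nearer start. The others were nhr-47 with dnj-19, nhr-59 with fbxa-137, nhr-184 with nstp-8 and nhr-280 with C29F9.2. The gap upstream of bound members had a median of 1558 bp and that of unbound members 1598 bp, and over all genes the values were 880 and 951 bp.

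**Figure D5:**
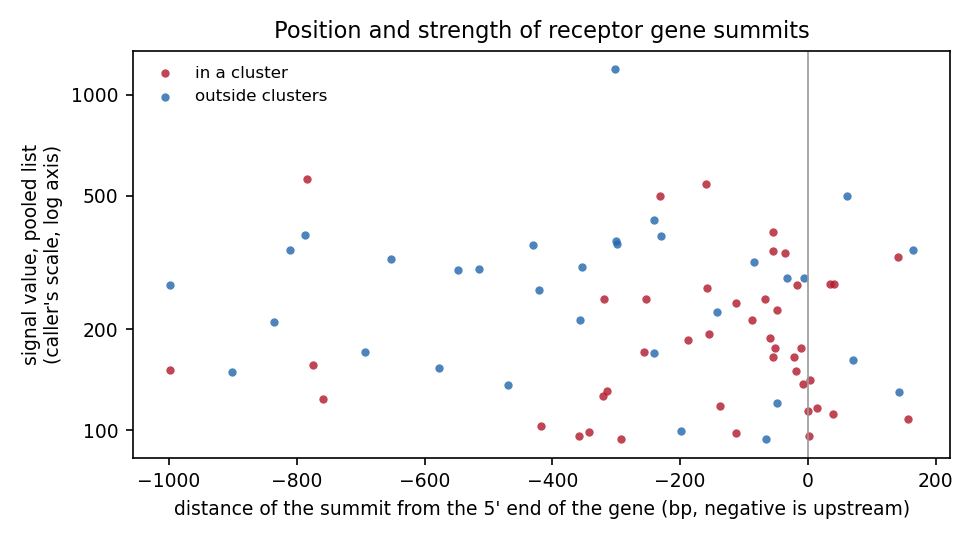
Distance of the strongest thresholded summit from the 5′ end of the gene (horizontal, bp, negative is upstream) and its signal value (vertical, log axis) for the 76 bound receptor genes, red in clusters and blue outside. Points gather close to 0 with 13 at or downstream of it, and the highest, nhr-35 at 1192, lies at -302 bp.

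Some receptor genes without a promoter summit had one elsewhere, at shares near those of other genes. Of the 186 unbound members 13 had a thresholded summit in the gene body (6.99%, against 5.90% of all unbound genes). Beyond the window and up to 5000 bp upstream 45 had one (24.2%, against 20.4%), and 52 had either (28.0%, against 24.3%). At 14 of the 45 such a summit lay in the promoter window of another receptor gene, as the nhr-135 summit did upstream of nhr-286. At 25 members (13.4%, against 10.0% of all unbound genes) a summit upstream lay in no gene's promoter window. The following were picked after their values were seen. The gene nhr-27 is 102756 bp long, and its body held 5 summits, the strongest with 763. The body of nhr-19 (7347 bp) held 4 with a highest value of 695, and that of nhr-34 (11313 bp) held 3 with a highest of 432. A long gene has more room for summits, and these counts were not set against gene length. At nhr-21 a summit of 653 lay at -1530 bp. This summit lay in no promoter window, and which gene it acts on was not tested. Among bound members 14 also had a summit in the gene body, so that 89 members had one in the promoter window or the body. The matching shares over all genes were not computed, so these counts have no background beside them.

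The DNA words at the summits differed in part from those of other genes. Within 50 bp of the strongest summit, TGATAA, the core of the intestinal GATA factor site, was found at 23 of 76 members (30.3%), against 37.0% of 2977 other promoter summits. In flanks of equal length centred 250 bp away its shares were 5.26% and 11.2%. The share at receptor summits thus lay above that of their flanks and below that of other summits. Its median distance from the summit was 23.5 bp, and 5 members had it more than once. Over whole promoter windows TGATAA was in 75% of bound members, 60% of those with a pooled summit only, 64.9% of those with none and 72.0% of all genes. AGATAA was at 13.2% of member summits and 9.57% of others.

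GAGAGA and CTGCG stood at larger shares of receptor summits than of other summits. GAGAGA was found at 26 members (34.2%, against 19.7%), with 6.58% and 6.11% in the flanks. CTGCG, searched for after the receptor sequences had been read, was at 29 members (38.2%, against 20%), with 5.26% and 5.95% in the flanks. The longer form CTGCGTC, chosen in the same way, was at 14 (18.4%, against 7.73%), with 1.32% and 0.537% in the flanks. Both forms were taken from these same summits, so their larger shares there follow in part from that choice. Of the bound members on V 43.1% had CTGCG and 27.5% GAGAGA, and of those elsewhere 28.0% and 48%. All 4 bound members of the cluster at chrV:2210510-2235180 and all 4 of the cluster at chrV:12092006-12109313 had CTGCG, which the largest cluster had at nhr-201 and nhr-202 only. These clusters were picked after the matches were seen, and over all bound members in clusters the share was 40.9%. CTGCG and GAGAGA occurred together at 13 members, and CTGCG and TGATAA at 4. A match is a run of letters on either strand, not a shown site, and CTGCG is short.

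Words of the nuclear receptor kind were not frequent. TGACCT was at 1 member (1.32%, against 3.12%), and GGTCA, which is contained in its reverse complement, at 6 (7.89%, against 12.3%). AGTTCA was at 6 (7.89%, against 4.94%) and GGACTTT, part of an HNF4 site, at 1 (1.32%, against 0.974%). CACGTG was at 6 (7.89%, against 3.76%). No match says only that these letters are not within 50 bp of that summit. The median signal was 269 for members with GAGAGA, 211 with TGATAA, 175.9 with CTGCG and 228 for the 19 members with none of those words. Sites of neighbouring receptor genes shared no long identical stretch, and copies that have since diverged would not be seen this way. Among 65 pairs of bound members in the same cluster, the longest stretch shared by the windows 50 bp to each side of their summits was 11 bases. The median in these pairs was 8 bases. Among the 2785 other pairs the median was below 8 bases and the longest stretch was 15.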

How the data were processed

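NHR-80 was profiled by ChIP-seq in 2 biological replicates of 1 group. The labels name GFP as the antibody target in one field and nhr-80 in another. The deposited ce11 lists are 1 per replicate, 1 for the replicates pooled, and an optimal list thresholded by IDR, all called against a control per the notes deposited with the samples. The caller, aligner and IDR limit were not given in the sources used here, and replicates could not be compared by read counts. The signal value per peak was deposited by the authors on the caller's scale and served to order and describe peaks within a list. The exceptions are the ratio between the replicate lists and the ce10 limit, which carry values across lists that may differ in scale. A ce10 list gave only its number of peaks and lowest signal.

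Summits were placed against the WBcel235 annotation (Ensembl release 115), the assembly of ce11, and no peak ran past a chromosome end. Sequences came from the RefSeq copy of that genome. Where windows overlapped, a summit was given to each of the genes. Named genes were the 25 strongest members with support in both replicates, the receptor lists, bound members of clusters with several, and those nearest the limit. Neighbouring genes, genes sharing a window and receptors with summits only outside the window were named after their values were seen. Members, lists and words were chosen with earlier results of these data known. Words were counted within 50 bp of summits on either strand. Zinc finger sequences were not analysed here. Python 3.11.15, numpy 2.4.6, pandas 2.3.3 and matplotlib 3.10.9 were used. The window function was tested on simulated data and checked against bedtools 2.31.1.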

Additional observations from a re-analysis of the deposited data

How the results depend on the processing

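The count of 76 bound receptor genes stayed within 1.5-fold for every other window, start definition and overlap rule tried, and for the lower limit of the ce10 list. It moved to 39 with peaks above the median signal and to 131 with any pooled peak, and the share of all genes moved to 9.768% and 38.07% with it. Leaving out each replicate gave 74 to 75 members and 18.05 to 18.37% of all genes. The count on X was 7 with the narrow window, and TGATAA was at 11 members within 25 bp. The count on V was 23 with peaks above the median signal and 81 with any pooled peak. For these counts on X and V, and for TGATAA within 25 bp, the matching shares of other genes or summits were not counted. They show only how the counts move with the setting. Of the values for single chromosomes, medians, clusters and words, 35 stayed and 16 moved. The comparisons of cluster with outside, of segments and of word shares with other summits were not recomputed. No paired analysis was possible because there is 1 group. The search of zinc finger sequences was not run. Peak lists carry no depth, so the reach of a missing peak cannot be set.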
